A study of Mus musculus with 10 samples.

Results

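Ly6 family surface proteins were examined as 6 transcripts, Ly6a, Ly6d, Ly6e, Ly6g, Psca and Lypd3, in cultured mouse tongue epithelial cells. They were taken by symbol from a table of 18586 genes, in which all 6 were present. RNA-seq was available for 10 libraries. Those of the EY genotype carried the basal-cell driver Krt14-CreERT, the transactivator LSL-rtTA and the reporter tetON_H2B-GFP, together with the oncogenes tetON_E6-E7 (of human papillomavirus) and tetON_YAP1S127A (constitutively active YAP1). There were 6, in pairs from lines EY3960, EY4028 and EY4174. The N genotype had the same driver, transactivator and reporter but neither oncogene, in 4 libraries of a single line, N4172. By the study's methods, the mice were adult littermates in sex-balanced groups, tamoxifen acted through the Krt14 promoter in basal cells, and doxycycline was given in the diet. Epithelium was collected 15 days after induction. Cells were sorted for GFP and cultured before RNA was taken. The culture medium held EGF, cholera toxin and also doxycycline, which kept the transgenes active. Genotype and line therefore cannot be told apart, and libraries of one line are not separate animals: p-values measure the spread between these libraries, which may be technical.

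Proteins of the Ly6/uPAR family share a small disulfide-bonded fold with finger-like loops. Most are held on the cell surface by a glycosylphosphatidylinositol (GPI) anchor, and a few are secreted. They take part in cell adhesion, signalling and complement control, and many serve as surface markers by which cells are sorted. In stratified squamous epithelium some members mark basal cells and others mark the layers above. Ly6a encodes Sca-1, a marker of mouse stem and progenitor cells. Ly6e encodes a widely expressed, interferon-inducible protein that acts in virus entry and binds the placental fusion protein syncytin-A. Psca encodes prostate stem cell antigen, found in several epithelia. Lypd3 encodes C4.4A, a relative of the urokinase receptor in suprabasal squamous cells. Ly6d marks lymphoid progenitors and is also made by keratinocytes, whereas Ly6g is the usual marker of mouse neutrophils.

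Psca, Ly6d, Ly6e, Ly6a and Ly6g lie on mouse chromosome 15 and Lypd3 on chromosome 7 (RefSeq, GRCm38.p6). The protein-coding neighbours of Ly6a are Ly6i on one side and Ly6c1 and Ly6c2 on the other. Family genes arose by duplication, and some still share sequence. Of the distinct 31-base words in GENCODE M21 transcripts of Ly6a, 31.9% were also found in another gene, and 21.9% in Ly6c1. For Ly6g 9.55% were shared, for Ly6e 0.422%, and for Ly6d, Psca and Lypd3 no word was shared. The longest identical coding stretch of Ly6a and Ly6c1 spans bases 37 to 81 of both coding sequences, counted from 1 at the start codon. It is shown because Ly6a and Ly6c1, which behaved differently below, cannot be told apart by a read that lies within it.

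Ly6a and Ly6c1: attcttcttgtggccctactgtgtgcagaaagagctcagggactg

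RefSeq promoter sequences, from 250 bases before to 50 after the transcript start, were at hand for 2 of the 6 members, Lypd3 and Ly6g. They are shown with that of Ly6c1, the family gene with the smallest adjusted p between EY and N. Capitals mark TATAAA in Ly6g and Ly6c1 and the reverse complement of GGGCGG in Lypd3. The Lypd3 window is chr7:24636320-24636619 (plus strand), the Ly6g window chr15:75155011-75155310 (plus strand) and the Ly6c1 window chr15:75048788-75049087 (minus strand), all in GRCm38.p6.

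Lypd3: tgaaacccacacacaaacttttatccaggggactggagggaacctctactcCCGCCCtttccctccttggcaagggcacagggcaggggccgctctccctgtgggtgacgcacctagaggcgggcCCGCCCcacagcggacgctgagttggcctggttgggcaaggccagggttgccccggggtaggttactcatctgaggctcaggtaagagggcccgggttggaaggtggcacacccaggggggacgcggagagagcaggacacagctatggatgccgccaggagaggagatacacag
Ly6g: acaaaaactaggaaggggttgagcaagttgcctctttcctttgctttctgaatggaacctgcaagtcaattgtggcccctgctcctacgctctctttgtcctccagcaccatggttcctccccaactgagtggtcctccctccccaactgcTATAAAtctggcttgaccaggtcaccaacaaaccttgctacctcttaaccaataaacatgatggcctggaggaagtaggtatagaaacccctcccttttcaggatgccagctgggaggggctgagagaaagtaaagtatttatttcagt
Ly6c1: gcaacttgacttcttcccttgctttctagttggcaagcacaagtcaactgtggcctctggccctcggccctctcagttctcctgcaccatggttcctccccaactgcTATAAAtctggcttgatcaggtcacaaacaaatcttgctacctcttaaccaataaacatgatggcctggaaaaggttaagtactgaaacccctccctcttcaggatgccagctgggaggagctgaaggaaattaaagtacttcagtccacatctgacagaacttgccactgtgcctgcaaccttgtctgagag

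The Lypd3 window was 64.0% G and C with 12 CpG, where all 32851 promoters had medians of 52.7% and 7. The Ly6g and Ly6c1 windows were 48.7% and 49.0% G and C, with 1 CpG each, and shared an identical run of 37 bases. The motif TATAAA, on either strand, was found in the Ly6g and Ly6c1 windows and in 13.6% of all promoters of that length. Ly6g and Ly6c1 each had another RefSeq window, not shown. That of Ly6g also held TATAAA, and that of Ly6c1 did not, with 53.7% G and C and 0 CpG. GGGCGG occurred at 2 places in the Lypd3 window, and in 35.7% of all promoters. None of the 3 windows shown held GGAATG, the core bound by TEAD partners of YAP1 (14.7% of all promoters), TGANTCA, bound by AP-1 (7.81%) or TTCNNNGAA, bound by STAT factors (8.30%). The motifs were searched on both strands, and the matches shown do not overlap. They describe these letters only.

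The libraries had 10852 to 11522 genes at 1 TPM or more (a transcript level scaled for transcript length and for the library's sum), and the read depth behind the values is unknown. The table does not state which transcripts were quantified or how they were summed to genes, so levels compared between genes carry that doubt. Yap1, the mouse counterpart of the introduced YAP1S127A, was 34.7 to 57.1 TPM in EY and 17.2 to 20.9 in N. It was higher in EY by 1.17 ± 0.14 (SE) on the log2 scale (limma adjusted p 1.73e-04). The deposited table has a single Yap1 row and does not say whether reads of the transgene are in it. Krt5 and Krt14, markers of basal squamous cells, were at 1321 TPM or more in every library. Defining markers of other cells were low: Ptprc, Csf1r, Pecam1, Kdr, Col1a1, Pdgfra and Des stayed below 1 TPM in every library. Other listed markers exceeded 1 TPM, among them Cd68 (29.3 to 71.8 TPM) and Mylpf (6.20 to 12.4 TPM). N4172 replicate 4 stood apart from the other 3 N libraries in several members, so results that rest on it are given with and without it. All 6 members were highest in this library among the N libraries, as were 35.3% of the tested genes.

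Differences are given on the scale of log2(TPM + 1), EY minus N, and a gene was called at a limma adjusted p under 0.01 with a difference of over 1. Ly6g was below the filter of 1 TPM in at least 4 libraries and was not tested. None of the 5 tested members was called between EY and N, where 3.55% of the 11630 tested genes were called (1.85% higher and 1.7% lower in EY). None reached an unadjusted p under 0.05 in limma, as 37.5% of all tested genes did. In none of the 6 members did all EY libraries lie beyond all N libraries, which 20.4% of the tested genes did. The median difference of the tested members was 0.15, against 0.03 over all genes tested. The levels of the members in each line are given below.

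**Figure D1:**
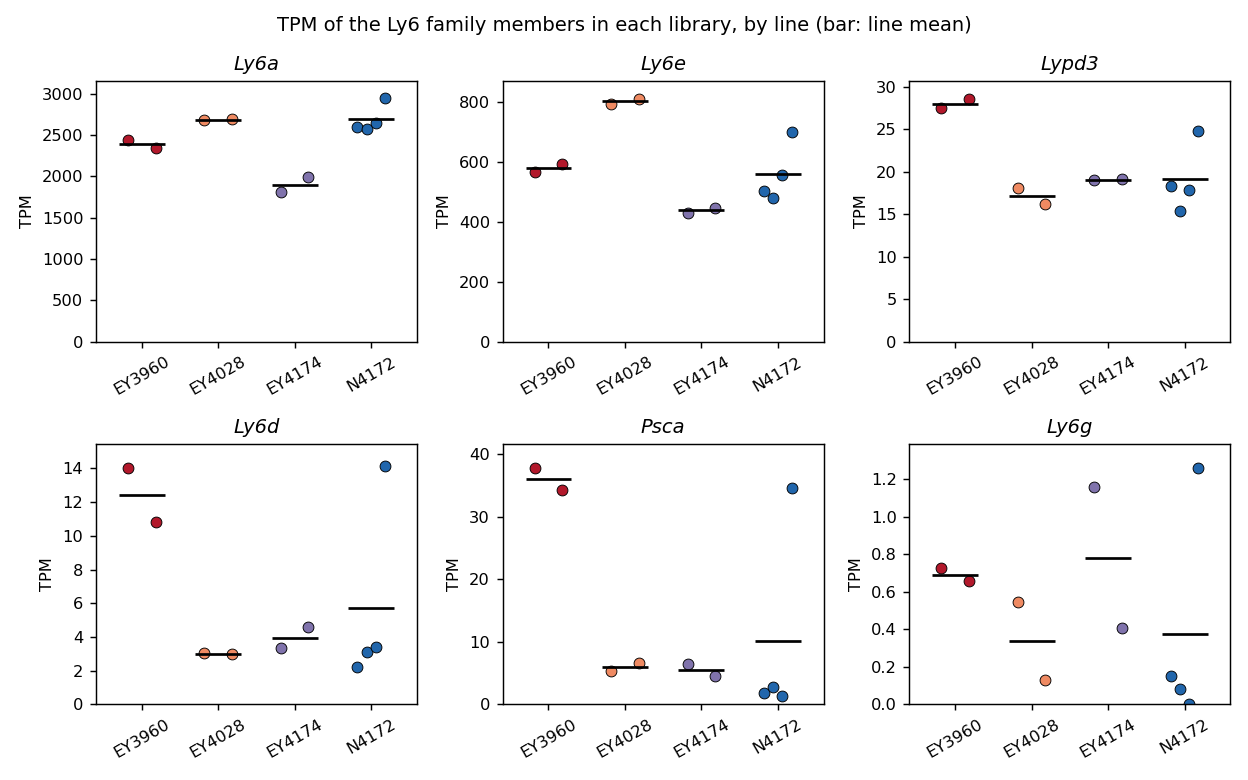
Each point is the TPM of 1 library (vertical axis, linear from 0) and each bar the mean of a line, for the 6 members. Ly6a and Ly6e were lowest in line EY4174, whereas Lypd3, Ly6d and Psca were highest in line EY3960 and in 1 N library.

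Ly6a was the most abundant member and ranked between 52nd and 103rd of all genes in every library. It was 2446 and 2350.3 TPM in EY3960, 2681 and 2692 TPM in EY4028, and 1809 and 1989 TPM in EY4174. The N libraries had 2594, 2573, 2649 and 2948 TPM in replicate order. EY4174 and EY3960 were below all N libraries, while EY4028 lay among them. EY averaged 2328 ± 362 TPM (SD, n = 6) and N averaged 2691 ± 174 TPM (SD, n = 4), a log2 difference of -0.22 ± 0.11 (SE, limma adjusted p 0.178). Against N, line EY4174 was lower by a log2 difference of -0.50 ± 0.07 (limma adjusted p 5.61e-04), EY3960 differed by -0.16 ± 0.07 (adjusted p 0.113) and EY4028 by -0.00029 (adjusted p 0.998). The difference of EY4174 was within the fold threshold, so Ly6a was not called.

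Ly6e ranked between 184th and 296th. Line EY3960 had 565 and 591 TPM, EY4028 had 793 and 808 TPM, and EY4174 had 428 and 447 TPM. Among N libraries, the values were 502, 479.5, 554 and 698 TPM. Both EY4028 libraries were above all N libraries, both EY4174 libraries were below them, and EY3960 lay among them. Pooled over lines, EY averaged 605 ± 164 TPM (SD, n = 6) and N 558 ± 98.1 TPM (SD, n = 4), and the log2 difference was 0.09 ± 0.19 (SE, limma adjusted p 0.777). Against N, EY4028 was higher by 0.53 ± 0.13 (limma adjusted p 0.00908), within the fold threshold, and EY4174 differed by -0.34 ± 0.13 (adjusted p 0.0658).

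Between the EY lines, both Ly6a and Ly6e differed by limma's F test. For Ly6a the line means spanned 0.50 on the log2 scale (adjusted p 0.00472), and for Ly6e 0.87 (adjusted p 0.00568), from EY4028 at the top to EY4174 at the bottom in both. With 1 of the 6 EY libraries left out, the adjusted p was 0.01 or more in 5 of 6 cases for Ly6a (0.00844 to 0.0287) and in 6 of 6 for Ly6e (0.0173 to 0.0382). With N4172 replicate 4 left out, it was 3.63e-04 and 2.67e-05. Neither span passed the fold threshold of 1, so no member was called between the lines, where 5.12% of all tested genes were called. An unadjusted p under 0.05 was reached by 3 of the 5, Ly6a, Ly6e and Lypd3, and by 34.8% of all tested genes.

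Psca had the widest range of the members on the log2 scale. It was 37.8 and 34.3 TPM in EY3960, 5.26 and 6.66 TPM in EY4028, and 6.47 and 4.49 TPM in EY4174. Replicates 1 to 4 of N had 1.86, 2.72, 1.27 and 34.6 TPM. All 6 EY libraries were above N replicates 1 to 3, while N replicate 4 was at the level of EY3960. The means of 15.8 ± 15.7 TPM (SD, n = 6) and 10.1 ± 16.3 TPM (SD, n = 4) gave a log2 difference of 1.12 ± 0.94 (SE, limma adjusted p 0.430). Without N4172 replicate 4, the N mean was 1.95 ± 0.728 TPM (SD, n = 3) and the difference 2.03 (limma adjusted p 0.0765). With line EY3960 also left out, a choice made after seeing the data, the difference was 1.20 (limma adjusted p 0.00200) and Psca was called higher in EY.

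The lines were then compared with N one at a time; these comparisons share the N libraries. Over all genes 7.04% were called in EY3960, 5.74% in EY4028 and 4.95% in EY4174. None of the 5 members was called in any line by limma, with an unadjusted p under 0.05 for 4 members in EY3960, 1 in EY4028 and 2 in EY4174, against 39.8%, 41.1% and 41.4% of all tested genes. Psca differed by 2.77 ± 1.09 in EY3960 (limma adjusted p 0.110), 0.35 ± 1.09 in EY4028 (adjusted p 0.839) and 0.24 ± 1.09 in EY4174 (adjusted p 0.894). Without N4172 replicate 4 the differences of Psca were 3.68, 1.26 and 1.15 (limma adjusted p 2.90e-07, 8.43e-04 and 0.00162), and Psca was called in every EY line. With any 1 library left out, 637 to 875 genes were called in EY3960, 453 to 699 in EY4028 and 443 to 600 in EY4174. With all libraries the counts were 819, 668 and 576. The call of Psca thus turns on 1 N library.

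Ly6d followed the same libraries at a lower level. It was 14.0 and 10.8 TPM in EY3960, 3.05 and 2.96 TPM in EY4028, and 3.31 and 4.58 TPM in EY4174. In N the values were 2.23, 3.11, 3.39 and 14.1 TPM. EY3960 and N replicate 4 stood above the other 7 libraries, which overlapped across genotypes. The log2 difference between EY (6.46 ± 4.76 TPM, SD, n = 6) and N (5.72 ± 5.63 TPM, SD, n = 4) was 0.23 ± 0.54 (SE, limma adjusted p 0.790). EY3960 differed from N by 1.29 ± 0.55 (limma adjusted p 0.124), and by 1.78 without N4172 replicate 4 (adjusted p 1.79e-05), when it was called. Without that library Ly6d differed by 0.05 in EY4028 and 0.34 in EY4174 (limma adjusted p 0.854 and 0.147).

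Lypd3 varied least among the low members. It was 27.5 and 28.6 TPM in EY3960, 18.1 and 16.3 TPM in EY4028, and 19.0 and 19.1 TPM in EY4174. The N libraries had 18.3, 15.4, 17.9 and 24.8 TPM. Both EY3960 libraries exceeded every N library, and EY4028 and EY4174 lay within the N range. EY averaged 21.4 ± 5.21 TPM (SD, n = 6) and N averaged 19.1 ± 4.03 TPM (SD, n = 4), a log2 difference of 0.15 ± 0.17 (SE, limma adjusted p 0.581). EY3960 was above N by 0.55 ± 0.15 (limma adjusted p 0.0214), and by 0.67 without N4172 replicate 4 (adjusted p 3.18e-04), within the fold threshold in both. EY4028 and EY4174 differed from N by -0.13 ± 0.15 and 0.02 ± 0.15.

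**Figure D2:**
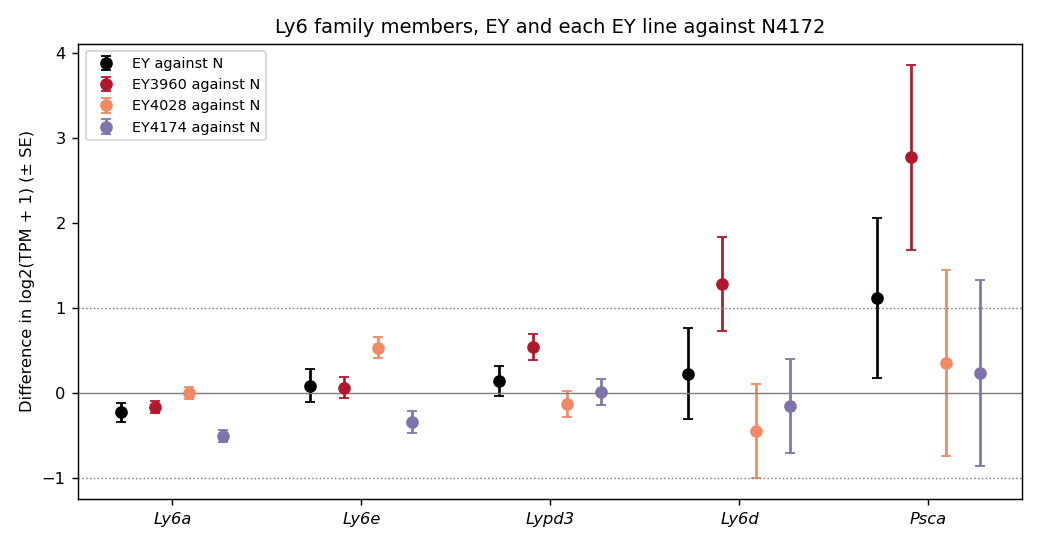
Points are differences in log2(TPM + 1) from N4172 for the 5 tested members, over all EY libraries (black) and for each EY line (colors), with bars of ± 1 SE; dotted lines mark the fold threshold of 1 in either direction. The error bars of Psca and Ly6d are much longer than those of Ly6a, Ly6e and Lypd3.

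The EY lines differed from one another by 2.53 in Psca, 1.73 in Ly6d and 0.67 in Lypd3 (limma F test, adjusted p 0.289, 0.157 and 0.0426). This test takes its error from all 10 libraries, including the N libraries. With only the 6 EY libraries, the adjusted p was 1.03e-04 for Psca, 0.00105 for Ly6d and 0.00516 for Lypd3, and Psca and Ly6d were called between the lines. This refit was chosen after seeing the data. Over all alternatives run, 350 to 716 genes were called between the lines, against 596 in the main fit. EY3960 exceeded EY4028 by 2.42 ± 1.26 in Psca and by 1.73 ± 0.64 in Ly6d (SE, all libraries). EY4028 and EY4174 were within 0.11 ± 1.26 and 0.29 ± 0.64 of each other.

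The same 3 libraries, both of EY3960 and N replicate 4, were highest in Psca, Ly6d and Lypd3. Beside them, 30 squamous differentiation genes were examined, of which 27 were in the table. Their summed level was 5573 and 5718 TPM in EY3960, 4761 and 4776 TPM in EY4028, 5094 and 5471 TPM in EY4174, 4094 to 4489 TPM in N replicates 1 to 3 and 5723 TPM in N replicate 4. The sum did not follow the 3 members in EY4174. It was mostly Krt6a and Krt17, and Krt17 was lowest in EY3960 (1142 and 1211 TPM). Gene by gene, of the 27 genes, 23 were highest in replicate 4 among the N libraries, as were 35.3% of all tested genes. The highest line mean was in EY3960 for 21 of the 27, a share not computed over all genes. In EY3960 8 of the 21 tested were called higher and 0 lower, with a median log2 difference of 1.04 against 0.01 over all genes. In EY4028 0 were higher and 1 lower, and in EY4174 1 was higher and 2 lower. Over all tested genes 7.04%, 5.74% and 4.95% were called in EY3960, EY4028 and EY4174. The part of differentiation state in the levels of Psca, Ly6d and Lypd3 was not tested, and in bulk RNA more cells of a kind and more RNA per cell cannot be told apart.

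In EY against N, 2 genes of this list rose and 0 fell of the 21 tested, with a median of 0.40. Over all tested genes 1.85% were called higher and 1.7% lower, with a median of 0.03. Sprr2a3, a cornified envelope precursor, had means of 214 ± 49.8 TPM for EY (SD, n = 6) and 88.5 ± 5.13 TPM for N (SD, n = 4), a difference of 1.23 (limma adjusted p 3.17e-04). Ovol1, an epithelial zinc finger factor, averaged 5.58 ± 2.48 and 2.02 ± 0.673 TPM (difference 1.07, limma adjusted p 0.00937). Ovol1 was not called in 18 of 25 alternatives, with the line as a random block among them (limma adjusted p 0.0910, which leaves a count of 1) and without line EY3960 (0.75).

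Ly6g was at the floor of the table. It was 0.726 and 0.656 TPM in EY3960, 0.544 and 0.131 TPM in EY4028, and 1.16 and 0.405 TPM in EY4174. In N4172 it was 0.153, 0.0815, 0 and 1.26 TPM. Only 2 libraries reached 1 TPM, one of EY4174 and N replicate 4, and the groups overlapped. Without a filter the log2 difference was 0.28 (limma adjusted p 0.462). Beside it, 12 granulocyte markers were examined, of which 5 were in the table. Their sum was 16.4 to 81.9 TPM in EY and 1.91 to 9.28 TPM in N, most of it S100a8 and S100a9, alarmins that keratinocytes also make. The neutrophil receptor gene Csf3r was below 1 TPM in every library, and Cxcr2 was at most 1.14 TPM.

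By level, in TPM, the order was Ly6a, then Ly6e, then a group of Lypd3, Psca and Ly6d, then Ly6g. The lowest Ly6a value, 1809 TPM, was above the highest Ly6e value, 808 TPM, and the lowest Ly6e value, 428 TPM, was above every value of Lypd3, Psca and Ly6d. Lypd3 exceeded Ly6d in every library. Psca was above Lypd3 in both EY3960 libraries and N replicate 4 and below it elsewhere, so these neighbours cannot be ordered across the study.

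Other Ly6/uPAR domain genes were examined next. Of 44 listed genes, 21 were in the table and 8 passed the filter. Of these 8, 0 rose and 3 fell, while 1.85% of all tested genes were called higher and 1.7% lower. The median difference was 0.03 both here and over all genes. Cd59a reached 1 TPM in the 4 N libraries alone, so it passed the filter only through the group where it is high. With any 1 N library left out it was not tested, and the count was 2. Ly6c1, a marker of monocytes and endothelium, Ly6c2, its near copy, and Cd59a, which protects cells from complement, were the 3 that fell. All 3 were called in each EY line, where 7.04%, 5.74% and 4.95% of all tested genes were called in EY3960, EY4028 and EY4174. In each, all EY libraries lay below all N libraries, and 20.4% of all tested genes had groups that did not overlap. Ly6c2 reached 1 TPM in the 4 N libraries and, of EY, only in EY4028 replicate 2 (1.18 TPM). It too passed the filter mainly through N. The sum of 5 melanocyte markers was also lower in EY, at 1.33 to 3.25 TPM against 8.78 to 26.1 TPM in N. It was mostly Gpnmb, at 7.16 to 24.8 TPM in N and 0.684 to 2.03 TPM in EY. Mlana was also higher in N, at 0.665 to 2.88 TPM against at most 0.548 TPM in EY. Pmel, Tyr and Dct were below 1 TPM in every library. The sum of 5 endothelial markers was not lower in EY, at 0.908 to 1.51 TPM against 0.608 to 1.38 TPM in N. For 4 markers of other immune cells the sums overlapped, at 29.4 to 72.0 TPM in EY and 42.2 to 69.1 TPM in N, mostly Cd68. The part of melanocytes, endothelium or immune cells in the differences of Ly6c1, Ly6c2 and Cd59a was not tested.

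Ly6c1 was 132 and 123 TPM in EY3960, 115 and 112 TPM in EY4028, and 156 and 144 TPM in EY4174. The N libraries had 796, 771, 853 and 817 TPM, so no library of either group came near the other. N was on average 6.20 times EY, and the log2 difference was -2.63 ± 0.09 (SE, limma adjusted p 1.41e-08). It was -2.66 in EY3960, -2.82 in EY4028 and -2.42 in EY4174. Ly6c1 amounted to 27.7% to 32.2% of the Ly6a level in N and to 4.17% to 8.64% in EY. Within EY the order of the lines in Ly6c1, EY4174 above EY3960 above EY4028, was the reverse of that in Ly6a and Ly6e.

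**Figure D3:**
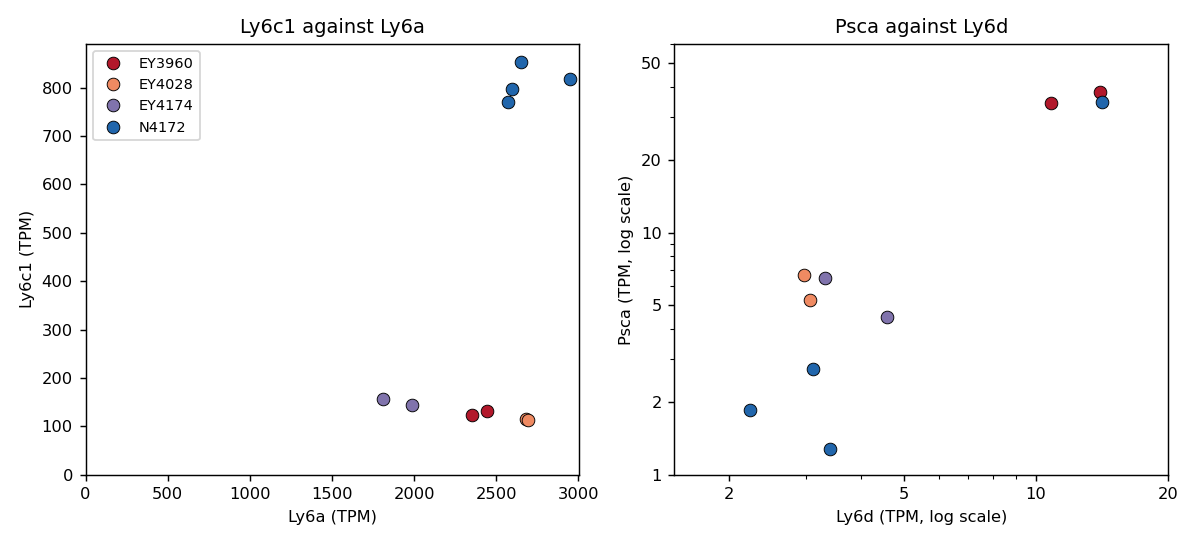
Each point is 1 library, colored by line. Left, Ly6c1 against its neighbour Ly6a in TPM on linear axes: Ly6c1 separates EY from N. In Ly6a, EY4028 lies within the N range and EY3960 and EY4174 lie below it. Right, Psca against Ly6d in TPM on log axes: N replicate 4 lies with the 2 EY3960 libraries, away from the other 3 N libraries.

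Cd59a averaged 8.20 ± 2.61 TPM for N (SD, n = 4) and 0.159 ± 0.189 TPM for EY (SD, n = 6), with at most 0.529 TPM in any EY library. The log2 difference was -2.96 ± 0.19 (SE, limma adjusted p 1.24e-06, or 2.48e-06 without a filter), which understates the difference of a gene this low. Ly6c2 was 0.556 to 1.18 TPM in EY and 2.89 to 5.24 TPM in N (-1.46 ± 0.15, limma adjusted p 6.39e-05). Of the 31-base words of Ly6c2, 21.4% occur in Ly6c1, so its low level is uncertain. The longest coding stretch identical in both spans 188 bases. The part of Ly6c1 reads in the level of Ly6c2, and so in its fall, was not tested. Without N4172 replicate 4, Ly6c1 and Ly6c2 stayed called at -2.63 and -1.58.

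Plaur, the urokinase receptor, had the opposite direction. It was 64.3 to 98.8 TPM in EY and 41.3 to 45.9 TPM in N, without overlap (0.90 ± 0.12, limma adjusted p 3.45e-04), within the fold threshold. In EY3960 the difference was 1.17 (limma adjusted p 9.39e-07) and Plaur was called. The EY lines differed by 0.57 (limma F test, adjusted p 0.00282).

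**Figure D4:**
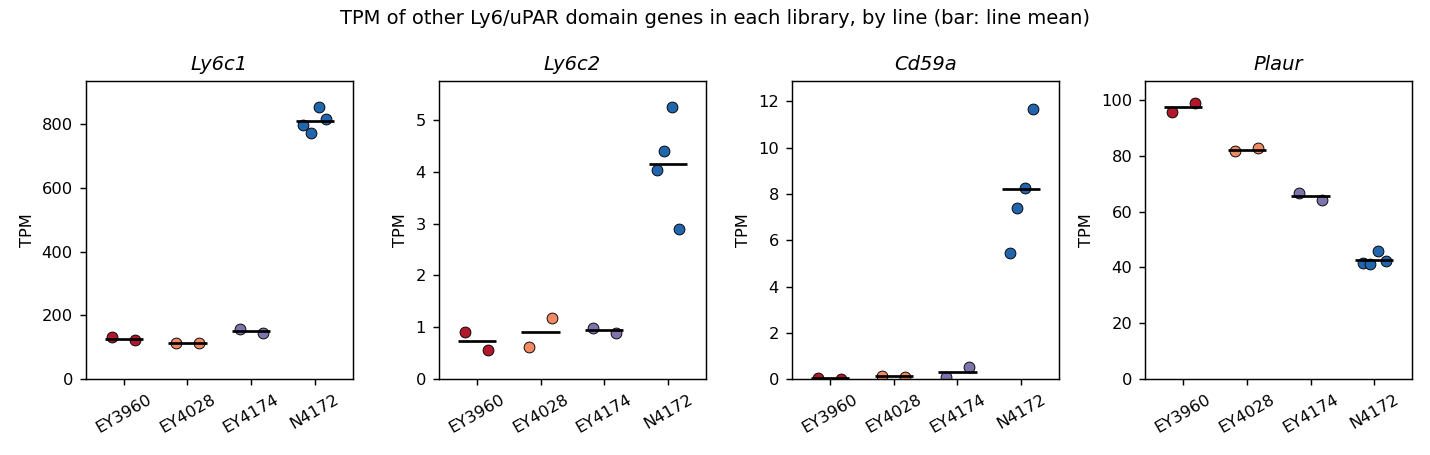
Points are TPM of 1 library each (linear axis from 0) and bars line means, for 4 other Ly6/uPAR domain genes. Ly6c1, Ly6c2 and Cd59a are lower in all 3 EY lines than in N4172, and Plaur is higher.

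GPI anchors are built and attached in the endoplasmic reticulum by a series of enzymes. Of 33 such genes, 30 were in the table and 28 were tested. None was called by limma between EY and N, with a median difference of 0.04 and an unadjusted p under 0.05 in 10, against 37.5% of all tested genes. Pigt was just within the fold threshold (0.97, limma adjusted p 1.57e-04). In EY3960 2 of the 28 were called higher (Pigt 1.01, Pigu 1.01), in EY4028 1 (Pigt 1.13) and in EY4174 0. Of 24 ligands and partners of the family (urokinase, laminin-332, integrin and acetylcholine receptor subunits among them), 9 were tested. Between EY and N, where 1.85% of all tested genes were called higher and 1.7% lower, 1 of the 9 rose and 0 fell (median 0.25). It was Chrnb1, an acetylcholine receptor subunit, with means of 4.55 ± 1.25 TPM for EY (SD, n = 6) and 1.48 ± 0.222 TPM for N (SD, n = 4), a difference of 1.13 (limma adjusted p 7.52e-04). With the line as a random block it was not called (limma adjusted p 0.0275), and the count was 0. Line by line, 3 of the 9 were called higher in EY3960, 2 in EY4028 and 0 in EY4174. Shares over all tested genes were 7.04%, 5.74% and 4.95%. Plau, urokinase, was called in EY3960 (2.20, limma adjusted p 9.70e-08) and EY4028 (1.35, limma adjusted p 5.56e-06). Over all EY libraries Plau differed by 1.35 ± 0.37 (SE, limma adjusted p 0.0256) and was not called.

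Interferon is known to raise Ly6a and Ly6e. Of 35 interferon response genes, 27 were in the table, 14 were tested and none was called by limma between EY and N (median -0.07, unadjusted p under 0.05 in 7, against 37.5% of all tested genes). Their summed level was 617 to 642 TPM in EY3960 and EY4028, 526 and 529.6 TPM in EY4174, and 534 to 562 TPM in N. Most of the sum was B2m, H2-K1 and H2-D1, of the MHC class I complex, and B2m was lowest in EY4174 (219.5 and 196 TPM, against 276 TPM or more elsewhere). In that line, the lowest in Ly6a and Ly6e, Bst2, an antiviral surface protein, was called higher than N, at 10.5 and 16.2 TPM against 4.35 to 6.01 TPM (1.19, limma adjusted p 8.96e-04). Bst2 was the only one of the 14 called there, and their median difference was -0.19, against -0.01 over all genes. At limma adjusted p under 0.01 but within the fold threshold, H2-K1, H2-D1 and Irf1 were also higher in EY4174. B2m, Ifi27 and Ifi35 were lower by the same measure. The part of interferon in the levels of Ly6a and Ly6e was not tested.

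The genes most like each member in pattern were found by Pearson's r of log2(TPM + 1) over the 10 libraries, among 7613 genes with a mean of at least 5 TPM. The libraries share 4 lines, so r is a description. Psca was most like Cnfn (r = 0.98), Crct1 (0.98) and Sprr1a (0.98). Cnfn averaged 38.7 TPM in EY3960 and 1.06 TPM in N replicates 1 to 3 but was 42.6 TPM in N replicate 4, so it too was high in the libraries where Psca was high. Ly6d was most like Dad1 (0.96), Sec11c (0.96) and Gabarap (0.95). Lypd3 was most like Ptges (0.96), Traip (0.96) and Echs1 (0.95). For the abundant members, whose order of lines was another one, other genes led. Ly6e was like Fkbp11 (0.97) and Tpm1 (0.96). Ly6a was most like Zfp330 (0.97), Igfbp7 (0.96) and Gusb (0.96).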

How the data were processed

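The deposited table gave TPM, computed by the authors, for 10 libraries. The submitters' processing notes name STAR 2.7.9, SAMtools 1.7, HTSeq 0.13.5, DESeq2 1.34.0 and GRCm39. The paper's methods describe TPM only for its gene set enrichment, from Kallisto run on human reference transcripts, keeping each gene's highest transcript. The table does not say whether its TPM came from that step, which would make a gene's value that of 1 transcript. TPM keep no depth, so no count model, counting interval or detection floor was used. The table holds rows above 0 in at least 6 libraries. Every column was mapped to a sample by its label.

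Members, gene lists and markers were chosen with earlier results of these data known. limma 3.58.1 (R 4.3.3, trend and robust) was fitted to log2(TPM + 1) for the 11630 genes that reached 1 TPM in 4 or more libraries, first by genotype and then with a mean for each of the 4 lines. Adjusted p-values are Benjamini-Hochberg over all tested genes, and thresholds followed the study. In simulated data, 197 of 200 changed genes were recovered for EY against N, 193 for EY4028 against N and 188 between the lines, with 1, 1 and 2 false calls. The simulated libraries were independent, without differences between lines of a genotype, and only genes of higher level were changed. These counts check the fitting steps and do not give error rates for these data, where lines differ. Named genes were all members, genes called in each list (at most 6), Yap1 and the 3 genes most like each member, of which 1 is not reported here. Plaur, Krt5, Krt14 and the cell markers were named beside the rule. Sequence words were counted in GENCODE M21 transcripts (GRCm38) and promoters taken from RefSeq (GRCm38.p6); the build differs from the submitters', so no other coordinates are given. Alternatives were other pseudocounts, filters and scalings, blocks, line means and leaving out libraries or lines.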

Additional observations from a re-analysis of the deposited data

Results flagged for a closer look

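In 3 members the N library of replicate 4 lay far from the other N libraries by Dixon's test, which flags about 1 in 20 groups by chance. Psca was 34.6 TPM there, with the nearest other N value at 2.72 TPM. Ly6d was 14.1 TPM against 3.39 TPM. Ly6g was 1.26 TPM against 0.153 TPM. Among the other family genes, Pinlyp was 3.52 TPM in that library against 0.935 TPM. Lypd8 was 0.572 TPM in N replicate 3 against 0.958 TPM, and Cd59a was 0.529 TPM in EY4174 replicate 2 against 0.158 TPM. These were 6 of 36 groups of values over 18 genes, where chance would give 1.8, and 4 of the 6 were N replicate 4. The groups share libraries and some genes vary together (Psca and Ly6d, r = 0.92). The flags are therefore not independent, and the 2 counts do not test for an excess.

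The response against N differed between the EY lines for 3 genes by limma's F test. The adjusted p was 0.00472 for Ly6a, 0.00568 for Ly6e and 0.00282 for Plaur. With 1 EY library left out, these p-values reached 0.0287, 0.0382 and 0.0246.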

How the results depend on the processing

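No member was called between EY and N in 124 of the 125 alternatives run for the 5 tested members. The exception, chosen after seeing the data, left out N4172 replicate 4 and line EY3960 together and called Psca (1.20). Signs turned only for small differences, with limma adjusted p of at least 0.0872. Without line EY3960, Ly6d was -0.30 and Lypd3 -0.056, and without line EY4028, Ly6e was -0.14. Leaving out 1 library gave -0.020 to 0.72 for Ly6d and -0.0044 to 0.20 for Ly6e.

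For EY3960 against N, leaving out 1 library gave 1.04 to 1.78 for Ly6d, 2.36 to 3.68 for Psca and -0.0033 to 0.18 for Ly6e, and quantile normalization gave -0.051 for Ly6e. Ly6d and Psca were called there only without N4172 replicate 4. For EY4028 the ranges were -0.021 to 0.044 for Ly6a (0.16 with quantile normalization), -0.70 to 0.047 for Ly6d and -0.063 to 1.26 for Psca. For EY4174 they were -0.40 to 0.34 for Ly6d, -0.075 to 0.14 for Lypd3 and -0.18 to 1.15 for Psca. In both lines Psca was called only without N4172 replicate 4, and its sign turned without N4172 replicate 3 and, in EY4174, also without N4172 replicate 1. Between the EY lines, the ranges were 1.56 to 1.91 for Ly6d and 2.42 to 2.76 for Psca. Both were called without N4172 replicate 4 and with the 6 EY libraries only (1.73 and 2.53), choices made after seeing the data.

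Of 413 genes called between EY and N, the count became 216 with 1 TPM required in every library, which tests fewer genes, 203 with the line as a random block and 2 with line means, which leave 1 N value. Requiring 1 TPM in every library gave 350 genes between the EY lines in place of 596. The other Ly6/uPAR genes called, 3 in the report, were 1 with 1 TPM in every library and 0 with line means. For GPI anchor genes, 0 in the report, the count was 1 with pseudocounts of 0.1 and 0.5 and without line EY4174, and 0 to 1 without single libraries. For ligands and partners, 1 in the report, it was 2 with either pseudocount, 3 without line EY4174, 0 without line EY4028, with line blocks or line means, and 1 to 2 without single libraries. For squamous differentiation genes, 2 in the report, it was 1 without a filter, with quantile or median-ratio scaling, without trend and robust options, with line blocks and without line EY4028, 0 with line means, and 1 to 2 without single libraries.

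Sample numbers showed no clear pairing of the libraries: deviations of same-numbered libraries correlated at -0.15 to 0.10. With 2 libraries per EY line, their deviations mirror each other, so replicates 1 and 2 give the same value between EY lines. The check is therefore weak and cannot settle whether libraries were paired. With the number as a replicate block, 221 genes were called, and 1 GPI anchor gene, 0 ligands and partners and 0 squamous genes, and the calls of Yap1, Chrnb1, Sprr2a3 and Ovol1 were lost; no member's call changed. The unknown read depth limits what can be said of Ly6g, Cd59a and Ly6c2.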
